A study of Mus musculus with 5 samples.

Results

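LβT2 and αT3–1 cells, 2 immortalized mouse lines of the gonadotrope lineage, were compared gene by gene in their polyadenylated RNA. The members are the genes at 1 RPKM or more (a read count divided by transcript length and by library depth) in either line, 12318 of 21437 named genes, and each was described by its log2(RPKM + 1) in LβT2 minus that in αT3–1. This scale understates the differences of genes with low levels. Both lines come from pituitary tumours of CB6F1/J mice that carried a transgene for SV40 T antigen, a viral protein that blocks the p53 and RB proteins, and both were untreated and harvested before confluence. The labels give αT3–1 an embryonic stage and LβT2 a mature stage, and the study treats them as an immature and a mature gonadotrope. Each line is an established culture kept by T antigen, and each gave 1 column of values. No replicate check of any difference was therefore possible, no test was made, and line, culture and library cannot be told apart. The series also holds the progenitor line αT1–1, the thyrotrope line TαT1 and NIH3T3 fibroblasts.

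Gonadotropes are the pituitary cells that make the gonadotropins, LH (luteinizing) and FSH (follicle-stimulating). Each hormone joins the common α subunit, encoded by Cga, to its own β subunit, encoded by Lhb or Fshb. Pulses of GnRH from the hypothalamus act on the receptor GNRHR, which signals through Gq proteins, calcium, protein kinase C and MAP kinases, while activin and inhibin act on the SMAD proteins. In the mouse embryo Cga is transcribed before Gnrhr, and Lhb and Fshb follow later. SF1, encoded by Nr5a1, and PITX1 bind the Lhb promoter together with EGR1, the immediate early factor that relays GnRH.

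The stretches before the start sites of Lhb, Gnrhr and Cga are shown because these hormone and receptor genes set the stages of the lineage apart. Each is 250 bases of mouse RefSeq sequence on the strand of the gene in GRCm38.p6, and the capitals mark the letters TGNCCTTG of an SF1 site, GATTA of the PITX core and CGCCCCC of the EGR1 core, searched on both strands.
Lhb, chr7:45420696-45420945, plus strand: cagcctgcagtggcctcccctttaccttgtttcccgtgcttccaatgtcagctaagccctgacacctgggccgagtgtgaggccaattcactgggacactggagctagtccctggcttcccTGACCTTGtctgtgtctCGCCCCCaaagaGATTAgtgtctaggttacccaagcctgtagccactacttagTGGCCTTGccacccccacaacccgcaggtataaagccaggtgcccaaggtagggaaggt
Gnrhr, chr5:86197902-86198151, minus strand: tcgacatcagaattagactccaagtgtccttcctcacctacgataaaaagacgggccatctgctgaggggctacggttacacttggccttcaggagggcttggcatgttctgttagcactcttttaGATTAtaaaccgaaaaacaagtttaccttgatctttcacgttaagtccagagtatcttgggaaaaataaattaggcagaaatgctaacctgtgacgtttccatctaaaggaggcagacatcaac
Cga, chr4:34893529-34893778, plus strand: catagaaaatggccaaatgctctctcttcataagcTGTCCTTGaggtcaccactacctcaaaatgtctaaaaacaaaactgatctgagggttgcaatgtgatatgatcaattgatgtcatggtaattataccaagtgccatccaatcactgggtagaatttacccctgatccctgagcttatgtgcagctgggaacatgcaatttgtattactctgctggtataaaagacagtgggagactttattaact
The Lhb stretch held the SF1 letters at 2 places, 129 to 122 and 59 to 52 bases before the start, with the EGR1 core (112 to 106) and the PITX core (100 to 96) between them and no overlap among the matches. In Cga the SF1 letters stood 215 to 208 bases before the start and neither core was found. The Gnrhr stretch had a PITX core 124 to 120 bases before the start, without the other letters. Of 32851 mouse promoters of the same length, 5.53% held the SF1 letters, 19.8% the PITX core and 14.8% the EGR1 core on either strand. A match is a description of these letters and no evidence of binding, and a lack of matches does not mean that no site is present. By ChIP the paper found PITX1 at Cga and Lhb and none at Gnrhr.

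The deposited values are RPKM. Values under 1 RPKM were whole multiples of a step in each column, from which 20.69 M reads follow for αT3–1 and 18.66 M for LβT2. Whole reads could be assigned to 10655 of the 12318 genes, and the 95% intervals given here rest on them and cover counting error only. Of 8 gonadotrope markers, 6 were at 1 RPKM or more in αT3–1 and 7 in LβT2. None of 4 thyrotrope, 5 folliculostellate and stem cell and 4 blood markers reached 1 RPKM in either line (summed level under 1 RPKM for each set), although in a longer list of stem cell genes Cxadr was at 13.7 RPKM in αT3–1 and 15.5 in LβT2 and Nes at 4.70 and 2.58. The 8 fibroblast markers summed to 4.02 RPKM in αT3–1 and 0.949 in LβT2, and the 5 corticotrope and melanotrope markers to 24.8 and 7.88. Of these 5, 1 was at 1 RPKM or more in each line, but not the same gene. It was Pcsk2 in αT3–1 (24.4 RPKM, 0.0791 in LβT2) and Crhr1 in LβT2 (7.72 RPKM, 0.199 in αT3–1). Endothelial markers went both ways, with Cdh5 at 1.16 RPKM in αT3–1 and 50.6 in LβT2, Pecam1 at 0.0585 and 15.2, and Kdr at 15.3 and 0. Drd2, the dopamine receptor of lactotropes, stood at 29.5 and 68.8 RPKM while Prl and Gh were under 1. The part of other cell types in these values was not tested.

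In LβT2, 783 genes were 4-fold or more higher than in αT3–1 (6.36% of those tested) and 841 were 4-fold or more lower (6.83%). At 2-fold, 2543 were higher (20.6%) and 2618 lower (21.3%), and the median difference over all genes tested was 0.0067. With the summed RPKM outside the 10 highest genes of each line set equal, the LβT2 values were divided by 1.35, the median moved to −0.39 and the 4-fold counts became 536 higher and 1109 lower. The genes that were higher reached higher levels than those that were lower. Of the 783 genes, 158 were at 100 RPKM or more in LβT2, against 39 of the 841 in αT3–1. Over all genes tested, 885 were at that level in LβT2 and 544 in αT3–1. The summed RPKM was also larger in LβT2, at 449223 against 314250. Of the genes that were lower, 506 were under 1 RPKM in LβT2, and of those that were higher, 363 were under 1 RPKM in αT3–1. A few genes held more of the LβT2 total, with 29 genes at 1000 RPKM or more against 3 in αT3–1. The 10 highest genes made up 8.61% of the summed RPKM in LβT2 and 3.45% in αT3–1.

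**Figure D1:**
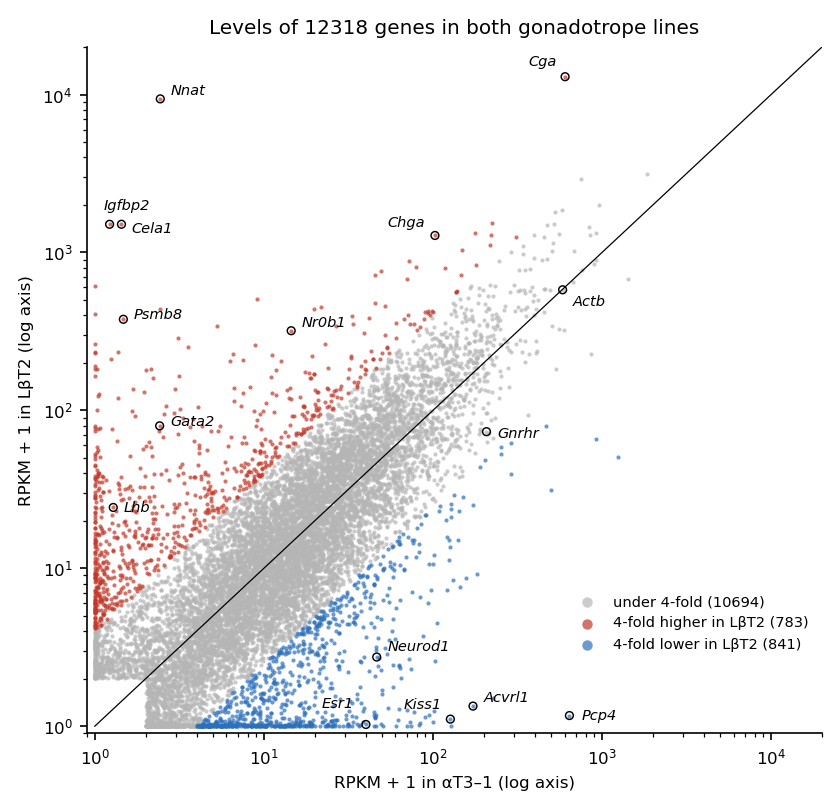
Level of each of the 12318 genes tested in αT3–1 (horizontal axis) and LβT2 (vertical axis), as RPKM + 1 on log axes, 1 point per gene. Red points are the 783 genes 4-fold higher in LβT2, blue points the 841 that were 4-fold lower, and the line marks equal levels. Cga and Nnat stand at the top, and Pcp4 and Acvrl1 lie near the bottom edge.

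The difference ran with the length of the transcript. Among the shortest of 10 length classes of genes (longest annotated transcript of 1383 bases or less), the median difference was 0.64, and 36.1% were 2-fold higher and 11.9% lower in LβT2. Among the longest class (6862 bases or more), the median was −0.87, and 8.21% were higher and 44.2% lower. In genes at 10 RPKM or more in both lines the medians of these classes were 0.76 (630 genes) and −0.35 (233 genes). The median level of the longest class was 9.14 RPKM in αT3–1 and 4.22 in LβT2, with 5.16 in αT1–1, 4.24 in TαT1 and 1.92 in NIH3T3. For the shortest class it was 13.4 in αT3–1 and 23.5 in LβT2, with 15.6, 18.4 and 16.7 in the other lines in that order. In the longest class αT3–1 was thus above the other 4 lines, and in the shortest class it was the lowest and LβT2 the highest. After the median of each of 20 length bins was subtracted, 18.7% of 12182 genes were 2-fold higher and 18.9% lower. RNA integrity had been checked by the authors on a Bioanalyzer, and the part of RNA quality and library preparation in this trend was not tested. Counts of a gene list after this subtraction are called length-adjusted.

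**Figure D2:**
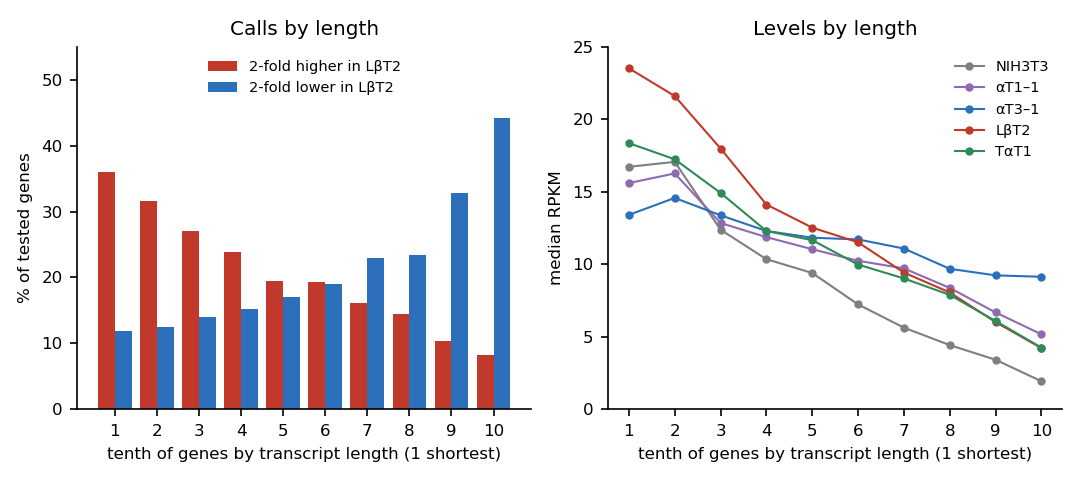
Left, share of tested genes 2-fold higher (red) or lower (blue) in LβT2 than in αT3–1, in 10 classes by annotated transcript length from the shortest (1) to the longest (10). Right, median RPKM of the same genes in each of the 5 lines. The share that was higher falls from 36.1% to 8.21% and the share that was lower climbs from 11.9% to 44.2%.

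The genes of the gonadotrope hormones and their receptor did not all differ in the same direction. Cga stood at 603 RPKM in αT3–1 and at 12968 in LβT2, a ratio of 21.5 (95% interval 21.03 to 21.96), and it alone made up 2.89% of the summed RPKM of LβT2. Lhb had 3 reads in αT3–1, or 0.285 RPKM, and 221 reads in LβT2, or 23.3 RPKM, a ratio of 81.7 (27.6 to 399). Gnrhr went the other way, from 206 RPKM in αT3–1 to 72.3 in LβT2, and was lower 2.85-fold in LβT2 (2.70 to 3.02). Fshb was listed at 0 in both lines, so no difference could be seen at this depth. Tshb, the thyrotropin β subunit, had 1 read in αT3–1 and 2 in LβT2. Actb, the cytoskeletal actin used as a reference, was nearly level at 584 and 579 RPKM.

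Of 33 pituitary transcription factors tested, 12 were 2-fold higher and 12 lower in LβT2, with a median of 0.06 that turned to −0.49 when the summed RPKM was set equal. The shares are above those of all genes (20.6% and 21.3%) in both directions. Gata2, a zinc finger factor of gonadotropes and thyrotropes that acts on the hormone subunit genes, was at 1.42 RPKM in αT3–1 and 78.8 in LβT2 (ratio 55.6, interval 45.4 to 68.9). Nr0b1, which encodes the SF1 antagonist DAX1, was at 13.5 and 318 RPKM (ratio 23.6, 21.6 to 25.8). Six6, a homeobox gene of pituitary and eye, was at 0.0489 and 6.56 RPKM. These factors were far higher in LβT2, while the factors named for binding the gonadotropin promoters differed less. Pitx1 was at 100 RPKM in αT3–1 and 337 in LβT2 (ratio 3.36, 3.26 to 3.47), and Isl1, a LIM homeobox gene, at 20.7 and 67.6. Nr5a1 was at 162 and 265 RPKM (1.63-fold, 1.59 to 1.68), and Lhx3 at 24.9 and 28.3. Egr1 stood at 1.38 RPKM in αT3–1 and 3.87 in LβT2.

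The factors lower in LβT2 included bHLH and forkhead genes. Neurod4 was at 24.8 RPKM in αT3–1 and 0.0320 in LβT2 (2 reads; ratio 773, 214 to 6385), and Neurod1, its relative in neurons and endocrine cells, at 45.5 and 1.74. Foxo1, a forkhead factor that restrains Lhb and Fshb in gonadotropes, was at 25.4 and 0.560 RPKM. Nr4a1, an immediate early nuclear receptor that GnRH induces, was at 54.0 and 2.49. Each of these 4 genes was under 3 RPKM in LβT2. Six3, a homeobox gene of the early pituitary, was at 9.42 and 0.0874 RPKM, and Sox18, an endothelial factor, at 68.9 RPKM in αT3–1 with 0 reads in LβT2 (at least 694-fold lower at a floor of 3 reads). Foxl2, a forkhead factor that acts with SMADs on Fshb, was at 86.8 and 46.0 RPKM. By family, all 3 GATA genes tested were 2-fold higher (20.6% over all genes). Gata6 was at 1.48 and 23.7 RPKM and Gata4 at 5.06 and 16.3. Of 39 Hox genes measured, which pattern the trunk, 13 reached 1 RPKM in αT3–1 and 0 in LβT2. These 13 entered the comparison through αT3–1 alone, so that all were 2-fold lower (21.3% over all genes) follows in part from the minimum, and the median over all 39 was −0.16. Hoxd8 led them at 24.2 RPKM in αT3–1, and 12 of the 13 had 0 RPKM in LβT2 (Hoxa7 was at 0.0275). The medians of the GATA and Hox genes kept their sign under the 4 scalings that were tried, but this was fixed in advance. A level of 0 stays 0 under each scaling, and factors of at most 1.35 could not turn the GATA median of 3.31.

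**Figure D3:**
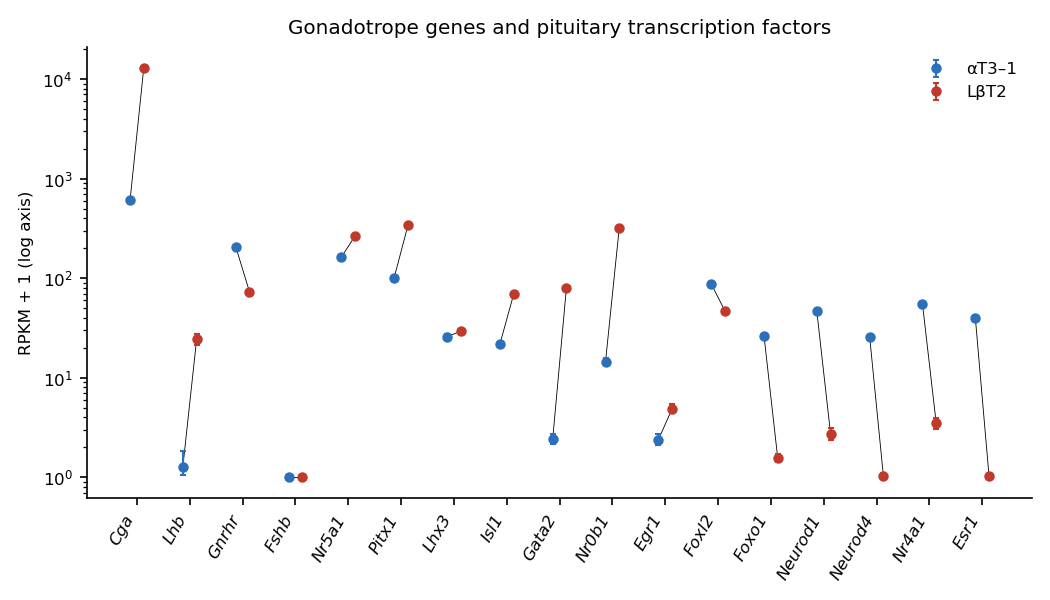
RPKM + 1 (log axis) of hormone, receptor and transcription factor genes in αT3–1 (blue) and LβT2 (red), 1 value per line. Bars are 95% Poisson intervals of the reads, most of them smaller than the points. Cga, Gata2 and Nr0b1 lie higher in LβT2, and Foxo1, Neurod1, Neurod4, Nr4a1 and Esr1 lie higher in αT3–1.

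Genes of GnRH receptor signalling were mixed, with 7 of 37 tested members 2-fold higher in LβT2 and 11 lower (median −0.32; 9 and 12 when length-adjusted). These shares are 18.9% and 29.7%, against 20.6% and 21.3% over all genes. Itpr3, an IP3-gated calcium channel, was at 0.737 RPKM in αT3–1 and 15.5 in LβT2 (ratio 21.1, 17.8 to 25.2), while Itpr1, its relative, was at 20.8 and 5.37. Gnaq, the Gq α subunit that couples GNRHR, was at 37.8 and 11.4 RPKM, and its relative Gna11 at 69.9 and 85.0. Camk2b, a calmodulin-dependent kinase, was at 104.8 RPKM in αT3–1 and 3.50 in LβT2, and Camk2d at 9.23 and 0. Among protein kinase C genes Prkce was at 41.4 and 4.59 RPKM and Prkca at 11.3 and 1.93, whereas Prkcb was at 10.1 and 25.8. The kinases differed by paralog, with members of a family on both sides. Braf was at 13.2 and 1.20 RPKM. The ERK gene Mapk3 (185 and 131) stayed within 2-fold.

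Of 22 adenylyl cyclase and phosphodiesterase genes, which set cyclic AMP, 12 were 2-fold lower in LβT2 and 6 higher (21.3% and 20.6% over all genes), with 10 and 5 when length-adjusted. The median was −1.29, but 0.0656 over the 9 genes at 1 RPKM or more in both lines. Adcy8, a calcium-stimulated cyclase, was at 52.9 RPKM in αT3–1 and 0.298 in LβT2, and Adcy3 at 11.8 and 0.384. Adcy5, which calcium inhibits, was at 10.8 and 125 RPKM. The cyclase with the highest level was therefore Adcy8 in αT3–1 and Adcy5 in LβT2. Adcyap1r1, the receptor for the peptide PACAP, was at 32.3 and 5.38 RPKM. Of 12 RGS genes, whose proteins switch off G proteins, 6 were 2-fold higher and 2 lower. These shares are 50% and 16.7%, against 20.6% and 21.3% over all genes. Rgs10 was at 3.26 and 37.5 RPKM, and Rgs2, which acts on Gq, at 0.980 and 4.92, while Rgs16 was at 11.9 and 0 and Rgs4 at 33.1 and 4.19. Among 16 immediate early genes 1 was 2-fold higher, Egr1, and 6 were lower (6.25% and 37.5%, against 20.6% and 21.3% over all genes). Fos was at 2.59 and 2.23 RPKM in these untreated cells.

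In activin, inhibin and BMP signalling, 7 of 32 genes were 2-fold higher and 12 lower (median −0.16; 7 and 8 when length-adjusted). As shares these are 21.9% and 37.5%, against 20.6% and 21.3% over all genes. The higher ones were mainly ligand genes. Inhbb, the βB subunit shared by activin B and inhibin B, was at 6.31 RPKM in αT3–1 and 104.8 in LβT2 (ratio 16.6, 15.2 to 18.1), and Inha, the inhibin α subunit, was at 7.80 and 98.7. Gdf9, an oocyte growth factor, was at 0.375 and 119 RPKM (ratio 317, 189 to 581). Amhr2, the receptor for anti-Müllerian hormone and a gene outside this list, was at 0.372 and 232 RPKM (ratio 623, 266 to 1919). These 4 genes were under 10 RPKM in αT3–1 and at about 100 or more in LβT2. Receptors and SMADs were divided between the lines. Smad3, an activin transducer, was at 5.38 and 67.0 RPKM, and Smad2 at 23.01 and 38.8. Smad1, a BMP transducer, was at 48.2 RPKM in αT3–1 and 0.0352 in LβT2 from 2 reads (ratio 1368, 378 to 11305). Acvrl1, the receptor ALK1, was at 171 and 0.340 RPKM (ratio 504, 336 to 796). The activin type I receptor gene Acvr1b was at 24.4 and 11.5 RPKM, and the type II genes Acvr2a (2.44 and 2.60) and Acvr2b (3.78 and 3.56) were near level.

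Receptors for estrogen and progesterone were lower in LβT2 and several other nuclear receptors were higher. Esr1, the estrogen receptor α, was at 39.1 RPKM in αT3–1 and 0.0248 in LβT2 from 2 reads (ratio 1577, 436 to 13025). Pgr, the progesterone receptor, was at 10.1 and 0.0700 RPKM. Nr3c1, the glucocorticoid receptor, was near level at 6.35 and 8.94. Esr1 and Pgr were thus under 1 RPKM in LβT2. Thrb, a thyroid hormone receptor, was at 0.111 and 29.2 RPKM (ratio 264, 160 to 473), while Thra was at 43.2 and 21.3. Rxra, the partner of many nuclear receptors, was at 1.65 and 40.9 RPKM. In all, 8 of 20 nuclear receptor genes on the list were 2-fold higher and 4 lower, and the same counts stood when length-adjusted. As shares these are 40% and 20%, against 20.6% and 21.3% over all genes.

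The secretory pathway was divided as well. Of 14 granin and granule cargo genes, 4 were 2-fold higher and 3 lower (28.6% and 21.4%, against 20.6% and 21.3% over all genes). Chga, the granule protein chromogranin A, was at 102 RPKM in αT3–1 and 1280 in LβT2 (ratio 12.6, 12.2 to 13), Cst3, the protease inhibitor cystatin C, at 223 and 1531, and Scg2 at 138 and 569. Resp18, an endocrine granule protein, was at 76.0 and 0.226 RPKM from 3 reads (ratio 336, 115 to 1630). Of 12 peptide processing enzymes none was 2-fold higher and 8 were lower (median −1.28; 1 and 6 when length-adjusted, median −1.23). As shares the unadjusted counts are 0% and 66.7%, against 20.6% and 21.3% over all genes. Pcsk2 and Pcsk1, the prohormone convertases, were at 24.4 and 0.0791 RPKM and at 11.8 and 0.128. Pam, which amidates peptides, was at 8.20 and 0.0131 RPKM, Qpct, a glutaminyl cyclase, at 17.8 and 0.0557, and Cpe, carboxypeptidase E, at 162 and 72.5.

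Of 44 genes of exocytosis, 9 were 2-fold higher and 16 lower (median −0.56; 11 and 14 when length-adjusted). As shares these are 20.5% and 36.4%, against 20.6% and 21.3% over all genes. Rab3b, a vesicle GTPase, was at 0.728 RPKM in αT3–1 and 90.6 in LβT2 (ratio 124, 94.2 to 168), and Rab3c, its paralog, was at 7.49 and 0.202. Among the synaptotagmins, which sense calcium, Syt9 was at 1.46 and 38.4 RPKM and Syt1 at 8.31 and 0. Syn2, a synapsin of vesicles, was at 61.6 and 1.40 RPKM, and Sytl4, the granule protein granuphilin, at 32.6 and 0.0576. Paralogs of the same family were thus exchanged between the lines. Snap25, a SNARE, was at 37.7 and 8.07 RPKM, and Syp, the vesicle protein synaptophysin, at 865 and 226. Of 10 neuropeptide genes 2 were 2-fold higher and 5 lower (20% and 50%, against 20.6% and 21.3% over all genes). Of these 10, 8 reached 1 RPKM in αT3–1 and 4 in LβT2, and the median over all 45 measured was 0. Kiss1, the kisspeptin precursor, was at 126 RPKM in αT3–1 and 0.108 in LβT2 from 1 read (ratio 1164, 208 to 45997), Gnrh1 at 3.80 and 0, and Pdyn, the dynorphin precursor, at 0 and 21.8. For the sugars of the hormones, 5 of 18 genes were 2-fold higher and 4 lower (27.8% and 22.2%, against 20.6% and 21.3% over all). Chst8, which sulfates the N-glycans of LH, was at 64.9 and 21.1 RPKM, and B4galnt3, a transferase that adds the sugar it sulfates, at 0.0163 and 6.62.

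Channel genes of the plasma membrane followed. Of 18 voltage-gated calcium channel genes, 1 was 2-fold higher and 10 were lower in LβT2 (median −1.20; 1 and 9 when length-adjusted). As shares the unadjusted counts are 5.56% and 55.6%, against 20.6% and 21.3% over all genes. Cacna2d4, an accessory subunit, was at 81.6 RPKM in αT3–1 and 0.0185 in LβT2. The pore subunits Cacna1c and Cacna1a were at 10.4 and 1.20 and at 26.1 and 4.70. The T-type subunit gene Cacna1h was the highest pore gene of the calcium channels in both lines, at 69.2 and 24.9 RPKM. Potassium channel genes went both ways, with 17 of 49 higher and 15 lower (34.7% and 30.6%, against 20.6% and 21.3% over all genes). Kcnk3, a leak channel, was at 3.10 and 104.7 RPKM and Kcng4, a modulatory subunit, at 2.81 and 87.2, whereas Kcnk2, another leak channel, was at 18.2 and 0.0271 and Kcng2 at 26.2 and 0.0952. The 6 sodium channel genes tested had 0 higher and 4 lower (2 when length-adjusted), such as Scn3a at 13.99 and 3.21 RPKM. The unadjusted shares are 0% and 66.7%, against 20.6% and 21.3% over all genes. Their median transcript length of 7176 bases lies in the longest of the 10 length classes, where 44.2% of genes were lower. Among glutamate receptor subunits Grin2c was at 0.207 and 30.01 RPKM and Gria2 at 9.15 and 0, and among GABA and glycine receptor subunits Gabbr2 was at 0.568 and 12.9 and Glrb at 11.2 and 0.

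Genes of epithelial junctions were higher in LβT2, 20 of 25 tested by 2-fold or more, with 2 lower (median 2.04; the same counts and a median of 1.79 when length-adjusted). These shares are 80% and 8%, against 20.6% and 21.3% over all genes, but 24 of the 25 reached 1 RPKM in LβT2 and 10 in αT3–1, so many entered through LβT2 alone. Over all 42 measured members the median was 0.84, and at 1 RPKM or more in both lines 5 were 2-fold higher and 1 lower. Cldn3, a tight junction claudin, was at 0 reads in αT3–1 and 190 RPKM in LβT2 (at least 1597-fold higher), and Epcam, an epithelial adhesion protein, was at 0.962 and 130 RPKM (ratio 135, 99.4 to 188). Krt18, a keratin of simple epithelia, was at 0 and 36.4 RPKM (at least 351-fold higher), and Esrp1, an epithelial splicing factor, at 0 and 21.3 (at least 566-fold higher). The genes that were lower were Perp, a desmosomal protein, at 61.9 and 0.282 RPKM, and Tjp1, the tight junction scaffold ZO-1, at 13.8 and 2.31. Of 8 mesenchymal genes tested 2 were 2-fold higher and 5 lower (25% and 62.5%, against 20.6% and 21.3% over all genes). Over all 16 mesenchymal genes measured the median was 0.0169. Cdh11, a mesenchymal cadherin, was at 89.2 RPKM in αT3–1 and 0.140 in LβT2 (ratio 638, 356 to 1278), Twist1 at 12.4 and 0, and Zeb1 at 19.6 and 3.09. Sparc and Mmp2, of the matrix, were the exceptions at 0.484 and 18.8 RPKM and at 0.127 and 11.01.

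Neuronal genes were more often on the αT3–1 side. Of 35 genes of neuronal adhesion and cytoskeleton, 5 were 2-fold higher in LβT2 and 16 lower (median −0.94; 7 and 13 when length-adjusted, median −0.48). As shares the unadjusted counts are 14.3% and 45.7%, against 20.6% and 21.3% over all genes. Of these 35, 33 reached 1 RPKM in αT3–1 and 27 in LβT2, and the median over all 41 measured was −0.46. Elavl3, an RNA-binding protein of neurons, was at 45.0 RPKM in αT3–1 and 0.171 in LβT2, Stmn4 at 48.9 and 0.696, and Dclk1 at 16.7 and 0. Celf3 and Srrm4, splicing factors of neurons, were at 83.2 and 5.605 RPKM and at 4.49 and 0.00723. The exceptions included Stmn3, a stathmin, at 147 and 1042 RPKM, and Cntnap2 at 1.27 and 19.6. Of 43 protocadherins 2 were higher and 21 lower (4.65% and 48.8%, against the same 20.6% and 21.3%). The counts became 6 and 14 when length-adjusted. Reads of the clustered protocadherins, which share exons, are uncertain.

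**Figure D4:**
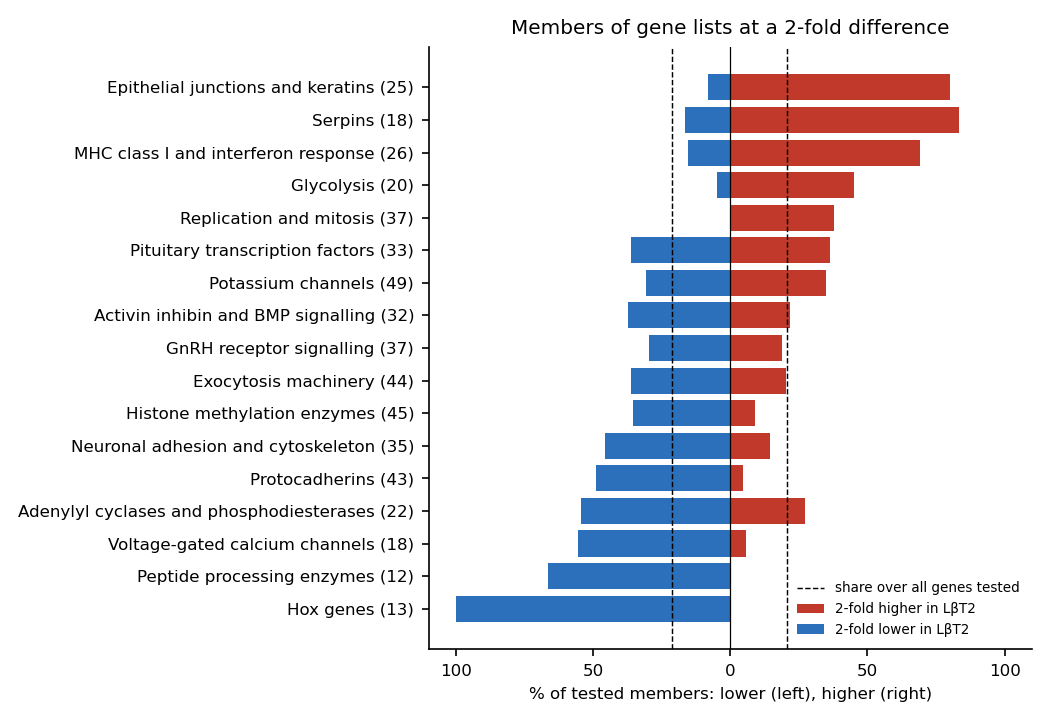
Share of the tested members of 17 gene lists (number in brackets) that were 2-fold higher (red, right) or 2-fold lower (blue, left) in LβT2 than in αT3–1, in percent. The dashed lines mark the shares over all genes tested, 20.6% higher and 21.3% lower. Epithelial genes reach 80% on the right, and all 13 Hox genes, which reached 1 RPKM in αT3–1 alone, lie on the left.

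The genes with the largest differences were not gonadotrope hormones. Nnat, an imprinted gene of neuroendocrine cells, was at 1.44 RPKM in αT3–1 (36 reads) and 9385 in LβT2, a ratio of 6526 (4714 to 9318). It made up 2.09% of the summed RPKM in LβT2. It lies within an intron of Blcap, which was at 8.48 and 37.1 RPKM, and since strand was not recorded the reads of the overlapping genes cannot be told apart. Igfbp2, a binding protein of insulin-like growth factors, was at 0.222 and 1507 RPKM (ratio 6774, 3112 to 18459). Cela1, a pancreatic elastase, was at 0.437 and 1507 RPKM (ratio 3449, 1875 to 7192), and Wfdc2, a secreted epithelial protein, had 0 reads in αT3–1 and 615 RPKM in LβT2 (at least 3001-fold higher). Bpil3 and Rya3, neighbours on chromosome 2, were at 0 in αT3–1 and at 407 and 164 RPKM in LβT2. Tnni3, the cardiac troponin I, was at 0 and 264 RPKM, and no reads could be assigned to it. Cst8, a cystatin of the reproductive tract, was at 0 and 234 RPKM, Lgals9, a galectin, at 0.0305 and 182, Sult5a1 at 1.42 and 440, and Slc16a3, a lactate transporter, at 0.244 and 210. The 10 genes of this paragraph other than Blcap and Nnat reach 164 to 1507 RPKM in LβT2 from under 2 RPKM in αT3–1.

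Pcp4, a calmodulin regulator of neurons, was the largest difference in the other direction, at 640 RPKM in αT3–1 and 0.167 in LβT2 from 2 reads (ratio 3829, 1060 to 31621). Ppp1r14a, an inhibitor of myosin phosphatase, was at 224 and 0.505 RPKM, and Dusp26, a phosphatase, at 128 and 0 (at least 1386-fold lower). Hspb8, a small heat shock protein, was at 99.7 and 0.0592 RPKM, Gadd45g, a stress gene, at 100 and 0.249, and Rtn1, a neuronal reticulon, at 83.2 and 0.0433. Slc6a17, a vesicular amino acid transporter, was at 93.3 and 0.178 RPKM, Olfml3, of the matrix, at 73.3 and 0, and Fitm1, of lipid droplets, at 71.9 and 0.0588. Pcp4 and its companions were thus at 70 RPKM or more in αT3–1 and under 1 RPKM in LβT2.

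Within the IGF system the binding proteins and the receptors differed in opposite directions. Igfbp5 was at 0.0578 and 126 RPKM and Igfbp3 at 3.31 and 78.6, while Igf1r, the receptor of IGF-I, was at 20.5 and 1.29, Insr, the insulin receptor, at 5.38 and 0.687, and Irs1, their adaptor, at 13.7 and 0.620. Irs4, another adaptor, was at 18.1 and 160 RPKM. In all, 4 of 10 genes tested were 2-fold higher and 6 lower (40% and 60%, against 20.6% and 21.3% over all genes). Over all 21 IGF system genes measured the median was −0.0162. Of 18 serpins, protease inhibitors, 15 were 2-fold higher and 3 lower (12 and 3 when length-adjusted). The unadjusted serpin shares are 83.3% and 16.7%, against 20.6% and 21.3% over all genes. Of these 18 serpins, 17 reached 1 RPKM in LβT2 and 6 in αT3–1, and the median over all 59 measured was 0. Serpina3a had 0 reads in αT3–1 and 229 RPKM in LβT2, Serpine2 was at 18.7 and 438, and Serping1 was at 29.99 and 0. The Serpina3 genes are near-identical copies, so their split of reads is uncertain. Klk1, a kallikrein with like copies, was at 7.89 and 259 RPKM, and Cpa1, a pancreatic carboxypeptidase, at 0 and 32.3.

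Of 26 genes of MHC class I presentation and the interferon response, 18 were 2-fold higher in LβT2 and 4 lower (median 1.49; 14 and 3 when length-adjusted, median 1.13). As shares the unadjusted counts are 69.2% and 15.4%, against 20.6% and 21.3% over all genes. When length-adjusted, the shares over all genes were 18.7% and 18.9%. Psmb8, Psmb9, Tap1 and Tap2 are neighbours on chromosome 17. Ifi27l1, which is not among these neighbours, was at 2.57 RPKM in αT3–1 and 249 in LβT2, a larger difference than that of Tap1. Psmb8 and Psmb9, subunits of the immunoproteasome, were at 0.474 and 376 RPKM (ratio 793, 454 to 1536) and at 2.10 and 284 (ratio 135, 97.2 to 195). Tap1 and Tap2, the peptide transporter, were at 3.08 and 43.8 RPKM and at 6.88 and 61.4. Psmb9 and Tap1 start in opposite directions from the same 225 bases of GRCm38.p6 (RefSeq), shown on the strand of Tap1 with the GC box letters (GGGCGG on the other strand) in capitals.
Psmb9 and Tap1, chr17:34187331-34187555, plus strand: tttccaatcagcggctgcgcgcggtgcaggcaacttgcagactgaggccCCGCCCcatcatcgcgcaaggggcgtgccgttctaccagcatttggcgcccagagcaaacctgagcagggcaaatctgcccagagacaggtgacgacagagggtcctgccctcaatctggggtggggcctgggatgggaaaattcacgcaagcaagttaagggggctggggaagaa
These letters stood 176 to 171 bases before the Tap1 start, and 31.9% of 32851 promoters held them within 225 bases on either strand. Irf1, an interferon regulatory factor, was at 3.91 and 17.8 RPKM. H2-K1 was at 32.9 and 82.3 RPKM and H2-D1 at 49.97 and 113, and the H2 genes share sequence. Stat2 (19.1 and 8.55), Ifitm2 (78.4 and 26.8), H2-Q7 (3.45 and 0.398) and Ifit2 (4.84 and 0) were lower.

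Of 37 genes of replication and mitosis, 14 were 2-fold higher in LβT2 and 0 lower (median 0.61; 12 and 1 when length-adjusted). This median was 0.18 when the summed RPKM was set equal and 0.28 under quantile normalization. As shares the unadjusted counts are 37.8% and 0%, against 20.6% and 21.3% over all genes. Cdc45 and Gins2, parts of the replicative helicase, were at 18.7 and 169 RPKM and at 31.6 and 221, and Pcna, the sliding clamp, was at 127 and 332. Mki67, a mark of cycling cells, was at 37.5 and 25.4 RPKM and Top2a at 130 and 152, so not all members were higher. Of 20 glycolysis genes 9 were 2-fold higher and 1 lower (median 0.95; 9 and 0 when length-adjusted). Ldha, lactate dehydrogenase A, was at 177 and 1329 RPKM, Hk2 at 1.11 and 10.2, and Hk1, the other hexokinase, at 132 and 58.3. The glycolysis median was 0.53 when the summed RPKM was set equal. Unadjusted, 45% of the glycolysis genes were higher and 5% lower, against 20.6% and 21.3% over all genes.

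Enzymes that write and erase histone methylation ran with transcript length. Of 45 tested, 4 were 2-fold higher in LβT2 and 16 lower (median −0.72), which became 6 and 8 of 44 when length-adjusted (median −0.27). The unadjusted shares are 8.89% and 35.6%, against 20.6% and 21.3% over all genes. When length-adjusted, the shares over all genes were 18.7% and 18.9%. Setd7, an H3K4 methyltransferase, was at 26.1 and 4.46 RPKM, Kdm2a, an H3K36 demethylase, at 45.5 and 11.8, and Ezh2, the H3K27 methyltransferase, at 58.5 and 18.5. Ehmt2, which methylates H3K9, was at 82.9 and 179 RPKM, and Wdr5, a core part of H3K4 methyltransferase complexes, at 27.6 and 66.0. Histone acetylation enzymes had 4 of 36 higher (11.1%) and 9 lower (25%), against 20.6% and 21.3% over all genes. Length-adjusted counts were 2 and 5. For DNA methylation Uhrf1, the partner of DNMT1, was at 21.9 and 113 RPKM, Dnmt1 was level at 115 and 118, and Tet1, Tet2 and Tet3 were at 4.04 and 0.421, 3.87 and 0.514, and 14.6 and 4.90.

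Differences also ran with chromosomes. The median over the 559 genes tested on chromosome 3 was −0.71, with 6.62% of them 2-fold higher and 38.8% lower. Chromosomes 13 (−0.60), 10 (−0.51), 19 (−0.43) and 8 (−0.39) followed. At the other end the median was 0.70 over 382 genes of chromosome 16, with 42.1% 2-fold higher and 13.4% lower, then 0.68 on chromosome 17, 0.47 on 2 and 0.42 on 14. When length-adjusted, chromosome 3 stood at −0.64 and chromosome 16 at 0.70, and among genes at 10 RPKM or more in both lines at −0.24 (173 genes) and 0.89 (127 genes). DNA copy number was not measured, and its part in these medians was not tested. Of 41 runs of 3 or more neighbouring tested genes that were all 4-fold apart in the same direction, 21 were higher and 20 lower. On chromosome 3 lay 8 of the 41, all of them lower. That chromosome held 559 of the 12214 genes placed and 75 of the 841 that were 4-fold lower. How many runs would arise without clustering was not computed. Tram1l1, Ugt8a, Camk2d and Ank2 formed such a run on chromosome 3, Evc, Evc2 and Msx1 on chromosome 5, and Psmb9, Tap1, Psmb8 and Tap2 on chromosome 17.

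**Figure D5:**
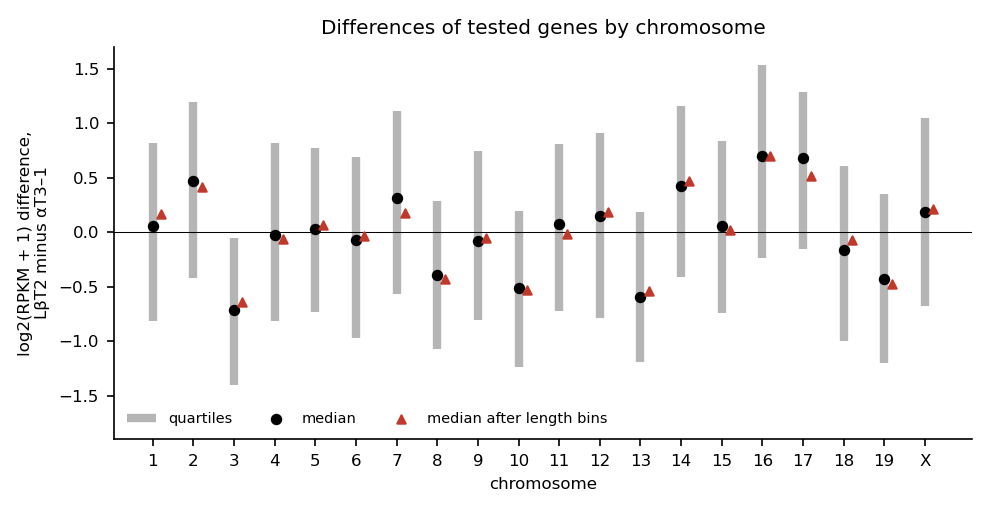
Difference in log2(RPKM + 1), LβT2 minus αT3–1, of the tested genes of each chromosome. Black points are medians, grey bars run between the quartiles, and red triangles are the medians after the length bins were subtracted. The medians run from −0.71 on chromosome 3 to 0.70 on chromosome 16.

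In the other lines the genes that were higher and those that were lower in LβT2 were placed differently. Of the 841 that were lower, 647 (76.9%) were at 1 RPKM or more in αT1–1, 623 (74.1%) in TαT1 and 394 (46.8%) in NIH3T3. Of the 783 that were higher, 463 (59.1%) were at 1 RPKM or more in αT1–1, 467 (59.6%) in TαT1 and 378 (48.3%) in NIH3T3. Over all genes tested these shares were 84.7%, 84.4% and 72.8%. Under 1 RPKM in all 3 other lines were 213 of the 783 (27.2%) and 107 of the 841 (12.7%), against 9.41% of all genes tested. Chga, at 488 RPKM in αT1–1 and 403 in TαT1, was thus lowest among the pituitary lines in αT3–1, and Pcsk2 (119 and 104) was under 1 RPKM in LβT2 alone of the pituitary lines. Nr5a1 and Gnrhr were under 1 RPKM in αT1–1 and TαT1. Cldn3, Cela1, Amhr2 and Gdf9 were under 10 RPKM in all lines other than LβT2, and Acvrl1 was under 1 RPKM in all lines other than αT3–1.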

How the data were processed

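Polyadenylated RNA of 5 mouse cell lines had been measured by the authors with a TruSeq kit that does not record strand, as 36 bp single-end reads on a HiSeq, aligned with CASAVA. Sources used here do not give the genome build or gene annotation. The deposited values are RPKM, computed by the authors, 1 column per line, although the study states replicate libraries. All 5 columns were mapped by title, and 0 other value columns stood in the table. Of 21476 entries, 25 with a date for a name were left out, and 9 repeated symbols were taken at the higher mean.

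Differences are of log2(RPKM + 1), with a pseudocount of 1 and a minimum of 1 RPKM in either line. Called means past 4-fold or 2-fold by size, and no p-value was computed. Reads were recovered for 15392 of 17489 genes above 0 (88%). The length taken was the shortest from 150 to 15000 bp at which all 5 columns gave whole reads within the rounding of the values. Genes whose length passed 1.05 times the annotated exons were left out. A tolerance of 0.05 applied only to the whole multiples of the step. Poisson intervals of levels and binomial intervals of ratios are exact and at 95%, and genes with 0 reads were set at a floor of 3 reads in that library. Of 21437 symbols, 21207 matched mouse RefSeq, used for names, chromosomes and sequences (GRCm38.p6), and transcript lengths are from GENCODE M21.

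The members and the 70 gene lists and symbol families were chosen with earlier results of these data known. Named genes are those of the study, 15 genes on either side that reached 10 RPKM and differed most (unnamed and ribosomal genes left out), for every list at most 4 members, and the 10 transcription factors with the largest differences in each direction. Other list members named, Psmb9 and Tap1 as shown sequences, and the genes of runs were chosen after their values were seen. Alternatives were other pseudocounts, minimums and scalings, and, added after the data were seen, subtraction of medians by transcript length and by chromosome. The steps were tested on simulated data. Some genes of these lists are not reported here. Computations used SciPy 1.17.1, pandas 2.3.3 and NumPy 2.4.6 under Python 3.11.15.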

Additional observations from a re-analysis of the deposited data

How the results depend on the processing

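With 1 column per line, no library could be left out in turn. No paired analysis was possible because each line has 1 column and no result comes from a test. Of 783 genes 4-fold higher and 841 lower, a pseudocount of 0.1 gave 1214 and 1474, a pseudocount of 5 gave 356 and 255, and a minimum of 1 RPKM in both lines, which tests fewer genes, gave 420 and 335. The median over all genes moved to −0.39 when the summed RPKM without the 10 highest genes of each line was set equal. The other alternatives kept both counts within 1.5 times. Among genes with reads, 671 of 700 that were higher and 701 of 711 that were lower had a 95% ratio interval wholly past 4-fold. Subtraction of length medians gave 704 and 750 genes, and of chromosome medians 699 and 838, both added after the data were seen. Of 260 named genes at a 2-fold difference, 221 kept it in the same direction with a pseudocount of 5, 244 when length-adjusted, and 257 when the summed RPKM was set equal. Many of these genes were named for having the largest differences, so that most kept theirs was in part fixed in advance. Tubb5, a β-tubulin, turned from 1.07 to −0.40 under quantile normalization. Under the 4 scalings 15 of 70 list medians changed sign, none of them among the 27 past 2-fold. With other sets of genes, medians past 2-fold that changed sign were those of fibroblast markers (0.0275 with no minimum, 0.0338 at 1 RPKM in both), mesenchymal genes (0.0338 with no minimum), secreted proteases (−0.16), cadherins (−0.0212) and fibroblast growth factors (−0.0379 with no minimum, −0.33 at 1 RPKM in both). So did the medians of adenylyl cyclases and phosphodiesterases (0.0656 at 1 RPKM in both), kallikreins (−0.0104 at 0.5 RPKM in either) and collagens (3.28 at 5 RPKM in either, 1.15 at 1 RPKM in both). These alternatives change which members are counted.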

Other observations

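Imprinted genes differed in both directions, with 6 of 24 tested, Nnat among them, 2-fold higher in LβT2 and 9 lower (20.6% and 21.3% over all genes). Peg3, a zinc finger gene, was at 78.5 RPKM in αT3–1 and 10.9 in LβT2, Rasgrf1, a Ras exchange factor, at 45.0 and 0, Cdkn1c, a cell cycle inhibitor, at 16.4 and 0.423, and Mest at 8.70 and 21.4. Among inhibitors of the cell cycle and targets of T antigen, Cdkn1a, which encodes p21, was at 50.2 and 157 RPKM and Gadd45a at 49.6 and 5.30. In the Notch pathway Hes6 was at 97.0 and 427 RPKM and Dner, a ligand of neurons, at 38.1 and 0.310. In the Wnt pathway Nkd2, an inhibitor, was at 0.465 and 26.3 RPKM, and Fzd10 and Fzd4, receptors, were at 14.5 and 0.0897 and at 0.0656 and 17.6.

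In oxidative defence Gstm2, a glutathione transferase, was at 0.0462 RPKM in αT3–1 and 37.3 in LβT2, and Sod1 was at 470 and 1498. Mt3, a metallothionein of neurons, was at 49.8 RPKM in αT3–1 and had 0 reads in LβT2 (at least 166-fold lower). Of 27 genes of ER folding and its stress response, 5 were 2-fold higher and 5 lower (18.5% each), near the shares over all genes. Ern1, the stress sensor IRE1α, was at 46.8 and 1.68 RPKM, Hsp90b1, a chaperone, at 252 and 57.6, and Trib3, a stress target, at 16.1 and 105.3. For sterol synthesis 6 of 25 were higher (24%, near the 20.6% over all genes) and 2 lower (8%, against 21.3%). Nsdhl, an enzyme of the pathway, was at 10.8 and 57.6 RPKM. The Y-linked genes Eif2s3y and Ddx3y were at 3.83 and 1.04 RPKM in αT3–1 and at 0 in LβT2. Tspan6 and Tspan5, tetraspanins, were at 18.6 and 0.0912 RPKM and at 35.8 and 0.760, while Tspan1 was at 0.221 and 16.8. Anxa2, an annexin, was at 68.8 and 0.273 RPKM and Lgals1, a galectin, at 37.9 and 1.74. Epha8, an Eph receptor, was at 0.0205 and 23.2 RPKM and Ephb6 at 17.7 and 0.0428. Gapdh was at 12.3 and 0.609 RPKM, and reads shared with its pseudogenes are uncertain.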
